A study of Mus musculus with 28 samples.

Results

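Wild-type (WT) duodenum was compared with WT kidney cortex in 12 of the series' 28 RNA libraries, 6 from each tissue. The libraries were taken by their titles, every one labelled Vdr+/+, and the raw-count tables of the tissues were joined on the gene symbols listed in both. All mice of the series, WT included, were 8-week-old females on the rescue diet TD.96348, which is rich in calcium, phosphate and lactose. The series also holds 4 duodenal and 4 kidney cortex libraries each of mice without a functional vitamin D receptor (Vdr-/-, here KO, of the line the tables call demay) and of mice whose receptor lacks activation function 2 (AF2), through which it recruits coactivators. The same tissue contrast was run in them. Libraries were made with QuantSeq, which reads the 3' ends of transcripts, so a gene's count does not grow with transcript length. The labels name no strain, do not say to which mutant line the WT mice belong, and do not say that replicates are separate animals or that one animal gave both tissues, so p-values measure the spread between these samples.

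The duodenum takes up calcium, phosphate, iron and nutrients across a brush border of villus enterocytes, and much of the active part of its calcium uptake is driven by the vitamin D receptor. The kidney cortex holds glomeruli and tubules. Its proximal tubule takes back most filtered phosphate, glucose and small proteins and makes the active vitamin D hormone, and its distal tubule takes back calcium under parathyroid hormone and vitamin D. Active calcium transport in both organs runs through an apical TRPV channel, a cytosolic calbindin and a basolateral pump or exchanger.

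Deposited counts per library totalled 3837906 to 25181916 in duodenum and 3725648 to 5788528 in kidney cortex, WT duodenum 2 having the highest. All counts were even, so reads are given as counts divided by 2, and WT duodenum 2 alone gave 50.0% of the duodenal reads wherever reads are pooled. The share of counts in mitochondrially encoded genes was 9.91 to 13.1% in duodenum and 24.8 to 30.2% in kidney cortex, and the share in the 10 highest genes was 14.9 to 16.9% in duodenum and 30.3 to 34.4% in kidney cortex. Levels are CPM, counts scaled to the same library size, after TMM scaling of all 12 libraries together. Libraries correlated across genes at 0.944 to 0.973 within duodenum and 0.947 to 0.971 within kidney cortex, against 0.465 to 0.492 between the tissues. The tissues were deposited in separate tables with separate runs of library codes, so tissue and any step done per tissue cannot be told apart. Because RNA came from whole tissue, fewer cells of a type and less RNA per cell cannot be told apart either.

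Duodenum and kidney cortex differed in the level of most tested genes. Of 13205 genes tested, 9395 (71.1%) were called with edgeR's quasi-likelihood test at an adjusted p under 0.05 (Benjamini-Hochberg), 4749 higher in duodenum (36%) and 4646 lower (35.2%). A second rule asked also for a difference of at least 4-fold, a log2 difference of 2 either way, and it called 3037 genes (23%), 1433 higher in duodenum (10.9%) and 1604 lower (12.1%). In 6819 tested genes (51.6%) the 6 duodenal and 6 kidney values did not overlap. The median log2 difference over all tested genes was 0.00284. This median and the near-even split depend on the scaling. With upper-quartile scaling they were -0.14, and 4193 genes higher in duodenum against 5238 lower. Differences of at least 64-fold as fitted were called for 313 genes higher in duodenum and 301 lower, and many of those had few or no reads in one tissue, where the fitted size depends on the prior count. For such genes the text gives reads, a read-rate ratio with an exact 95% interval, or a bound that gives the tissue without reads 3 reads in its pooled libraries, all covering counting error only. A gene too low in one tissue to pass the filter on low counts there entered the test only through the other, so its direction was fixed. Counts of lists that hold such genes are in that part a description.

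The genes of highest level among those at least 4-fold different and without overlap were, in duodenum, Prap1, Tff2, Actb, Pigr, Mgam, Gkn3, Reg1, Muc6, Muc13, Tff1, Alpi and Slc5a1. Prap1, a secreted protein of the intestinal epithelium, had 9186, 13696 and 19588 CPM in duodenum and 0.731, 1.30 and 1.75 CPM in kidney cortex, where each triplet gives the lowest, the median and the highest of 6 libraries. Tff2, a trefoil peptide of gastric-type mucus, had 8718, 10045 and 18185 CPM in duodenum and 0 reads in kidney cortex, and was at least 60499-fold higher in duodenum. Mgam, a brush border maltase, had 3235, 5554 and 7096 CPM in duodenum and 85.4, 109 and 131 CPM in kidney cortex. In kidney cortex the corresponding genes were Gpx3, Kap, Pck1, Napsa, Igfbp7, Slc34a1, Cd63, Timp3, Miox, Lrp2, Umod and Fxyd2. Gpx3, the secreted glutathione peroxidase that the kidney supplies to plasma, had 31.3, 48.2 and 77.0 CPM in duodenum and 23384, 27089.6 and 30358 CPM in kidney cortex. Kap, the kidney androgen-regulated protein of the proximal tubule, had 0, 0 and 0.241 CPM in duodenum and 8675, 10852 and 13734 CPM in kidney cortex. That neither tissue's values reached the other's was a condition of choosing these genes. By fitted difference, Tff2, Reg1, Muc13, Tff1 and Alpi led in duodenum, each with 0 reads in kidney cortex. Kap, Slc34a1, Keg1, Aadat and Slc12a1 led in kidney cortex, each with at most 3 duodenal reads.

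**Figure D1:**
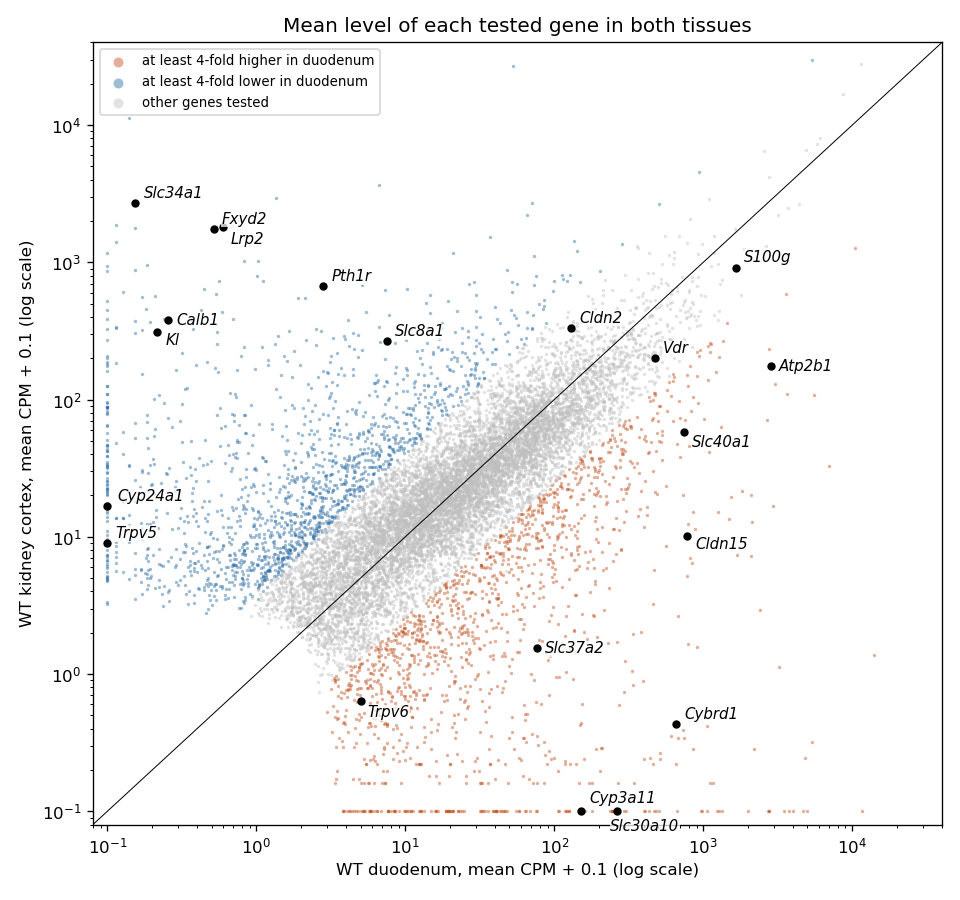
Mean level of each of the 13205 tested genes in WT duodenum (x axis, CPM + 0.1, log scale) and WT kidney cortex (y axis, CPM + 0.1, log scale), with 20 genes of mineral handling named in black. The diagonal marks equal levels, and coloured points passed the 4-fold rule, 1433 to the right of it (higher in duodenum) and 1604 to the left (lower).

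Among 113 listed genes of mineral and vitamin D handling, 88 were tested in WT, of which 41 were higher in duodenum and 43 lower. The lists hold genes known to act in one or both of these organs. Their share, whole or list by list, is therefore no independent result beside the 36% and 35.2% of all tested genes.

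Calcium entry channels were split between the tissues. Trpv6, the apical calcium channel of the intestine, had 3.76, 5.06 and 6.12 CPM in duodenum and 0, 0.584 and 0.968 CPM in kidney cortex. It was higher in every duodenal library, with 127 reads in duodenum and 8 in kidney cortex, a duodenum-over-kidney read-rate ratio of 9.36 with a 95% interval of 4.61 to 22.1 and a log2 difference 3.11 ± 0.44, adjusted p = 1.55e-06. Trpv5, the apical calcium channel of the distal tubule, had 0 reads in duodenum and 4.56, 8.41 and 12.3 CPM in kidney cortex. Its 131 kidney reads put it at least 74.1-fold lower in duodenum. Both channels had low counts, so their levels are known only roughly. Each could enter the test only through the tissue where it was higher. They lie next to each other on the same strand of mouse chromosome 6 (GRCm38/mm10, GENCODE), Trpv5 at chr6:41652173-41680769, minus strand, and Trpv6 at chr6:41620624-41636405, minus strand, with 15767 bases between the genes. The 250 bases before each RefSeq start (GRCm38.p6) are shown because the neighbours were higher in opposite tissues. Trpv6 is the interval chr6:41636406-41636655, minus strand, and Trpv5 the interval chr6:41680724-41680973, minus strand, each printed 5' to 3' along its gene. Capitals mark matches to the short motifs described with the sucrase and alkaline phosphatase promoters.
Trpv6: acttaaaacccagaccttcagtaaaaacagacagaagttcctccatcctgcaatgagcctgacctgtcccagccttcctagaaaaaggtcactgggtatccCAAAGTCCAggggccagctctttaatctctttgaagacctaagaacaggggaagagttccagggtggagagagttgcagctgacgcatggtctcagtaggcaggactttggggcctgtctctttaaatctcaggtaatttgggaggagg
Trpv5: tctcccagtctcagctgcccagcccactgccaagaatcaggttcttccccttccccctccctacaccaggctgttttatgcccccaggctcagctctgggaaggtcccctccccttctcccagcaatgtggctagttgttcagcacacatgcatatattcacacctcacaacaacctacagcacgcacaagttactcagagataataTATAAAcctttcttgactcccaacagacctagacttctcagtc

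In the window of Trpv6 the letters CAAAGTCCA, a form of the site of HNF4 factors, stood 149 to 141 bases before the start. In that of Trpv5 the letters TATAAA stood 43 to 38 bases before the RefSeq start. That RefSeq start lies inside the Trpv5 gene of GENCODE, and so does the TATAAA match, which follows the GENCODE start. A match describes these letters and not a bound site.

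The calbindins differed as well. S100g, the small calbindin, which ferries calcium through the cytosol of enterocytes, had 862, 1763 and 2369 CPM in duodenum and 499, 918 and 1339 CPM in kidney cortex. The ranges overlapped, and the mean was higher in duodenum (log2 difference 0.87 ± 0.29, adjusted p = 0.0172). Calb1, the large calbindin of the distal tubule, had 0, 0 and 0.942 CPM in duodenum, from 3 reads in 1 library, and 318, 394 and 418 CPM in kidney cortex. Every kidney library was far above every duodenal one (kidney-over-duodenum read-rate ratio of 3107 with a 95% interval of 1063 to 15070.4). Calb2, the neuronal calretinin, was listed in the duodenum table only, at 2.16 ± 0.719 CPM.

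Of the proteins that move calcium out of the cell, a pump was higher in duodenum and an exchanger lower. Atp2b1, the plasma membrane calcium pump of the basolateral side, had 2328, 2809.6 and 3424 CPM in duodenum and 155, 173 and 199 CPM in kidney cortex (log2 difference 4.02 ± 0.13, adjusted p = 7.51e-17). Slc8a1, the sodium-calcium exchanger, had 5.17, 6.89 and 10.7 CPM in duodenum and 212, 254 and 357 CPM in kidney cortex (log2 difference -5.21 ± 0.18, adjusted p = 2.04e-16). No duodenal value of either gene lay within the kidney range. Atp2b4, another calcium pump, averaged 32.2 ± 7.02 CPM in duodenum and 35.7 ± 6.29 CPM in kidney cortex and did not pass (log2 difference -0.16 ± 0.16, adjusted p = 0.373). The other 4 listed pumps and exchangers were too low to test. Atp2b2 had 7 reads in duodenum and 54 in kidney cortex, and the neuronal exchangers Slc8a2 and Slc8a3 had 54 and 55 reads in duodenum against 3 and 2 in kidney cortex.

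**Figure D2:**
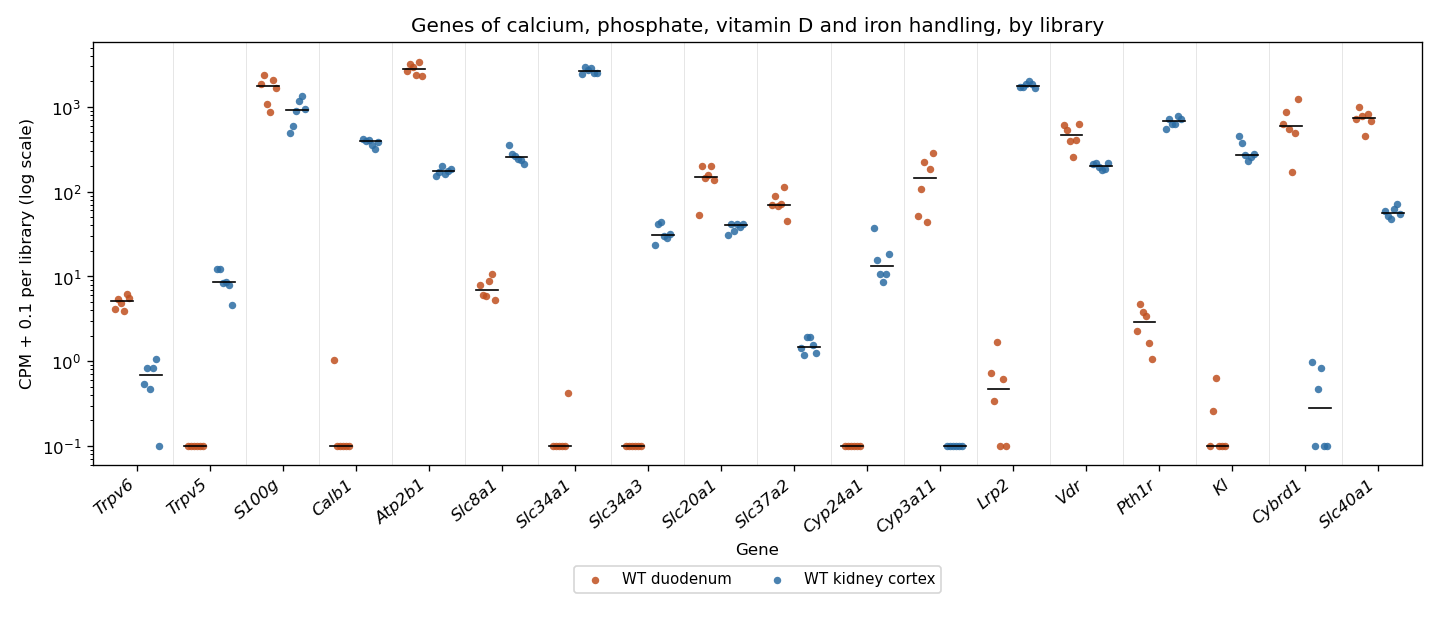
CPM + 0.1 (log scale) of 18 mineral genes in each of the 6 WT duodenal libraries (left, orange) and 6 WT kidney cortex libraries (right, blue), with the median as a black line; points at the bottom are libraries with 0 counts. S100g is the 1 gene shown whose ranges overlap, with medians of 1763 CPM in duodenum and 918 CPM in kidney cortex.

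Claudins seal the path between epithelial cells or make it permeable to chosen ions. Of 23 listed, 14 were tested, 6 were higher in duodenum and 8 lower, with a median log2 difference of -1.20. Cldn7, a barrier claudin, had 1492 ± 333 CPM in duodenum and 13.3 ± 3.23 CPM in kidney cortex (SD, n = 6 each), and Cldn15, which makes the sodium-permeable pores of the intestine, had 773 ± 50.5 CPM in duodenum and 10.02 ± 2.44 CPM in kidney cortex. Cldn3 averaged 144 ± 34.3 CPM in duodenum and 12.5 ± 4.29 CPM in kidney cortex. Cldn18, known from stomach and lung, had 179 ± 90.9 CPM in duodenum and 1 read in kidney cortex (duodenum-over-kidney read-rate ratio of 2613 with a 95% interval of 469 to 103234). Cldn23 was also higher in duodenum, with 536 reads in duodenum and 4 in kidney cortex (duodenum-over-kidney read-rate ratio of 79.0 with a 95% interval of 30.7 to 291). Cldn4 was higher by a smaller amount (log2 difference 0.87 ± 0.26, adjusted p = 0.00502). On the kidney side stood the claudins of named segments. Cldn10, which has forms in the proximal tubule and the thick ascending limb, averaged 0.724 ± 0.735 CPM in duodenum and 239.9 ± 31.5 CPM in kidney cortex. Cldn16 and Cldn19, the pair that makes the thick ascending limb permeable to calcium and magnesium, had 3 and 1 read in duodenum against 295 and 440 in kidney cortex. Cldn8, a claudin of the distal nephron, averaged 0.865 ± 0.290 CPM in duodenum and 31.0 ± 12.9 CPM in kidney cortex. Cldn2, a cation-permeable claudin used by both organs, averaged 129 ± 29.4 CPM in duodenum and 334 ± 21.2 CPM in kidney cortex (log2 difference -1.37 ± 0.13, adjusted p = 4.91e-09), and Cldn1, Cldn5 and Cldn12 were also lower in duodenum.

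Phosphate carriers differed between the tissues. Of 13 listed genes, 12 were tested, 5 were higher in duodenum and 6 lower. Slc34a1, the main sodium-phosphate cotransporter of the proximal tubule, had 0, 0 and 0.323 CPM in duodenum, 1 read in all, and 2472, 2628 and 2958 CPM in kidney cortex (kidney-over-duodenum read-rate ratio of 65895 with a 95% interval of 11826 to 2602790.0). Slc34a3, the second renal cotransporter of that family, had 0 duodenal reads and 23.2, 30.8 and 43.7 CPM in kidney cortex, at least 272-fold lower in duodenum. Slc34a2, the cotransporter of the small intestine, which in mice is mostly ileal, was not detected in duodenum, with 0 reads of 24848010, which allows up to 0.121 CPM, and had 61 reads in kidney cortex. It was too low to test and was at least 34.5-fold lower in duodenum. Slc20a1, a phosphate carrier of most cells, averaged 149 ± 53.7 CPM in duodenum and 37.9 ± 4.38 CPM in kidney cortex (log2 difference 1.97 ± 0.25, adjusted p = 5.94e-06), while its relative Slc20a2 was lower in duodenum (log2 difference -1.42 ± 0.19, adjusted p = 9.26e-07). Xpr1, the phosphate exporter, was higher in duodenum by a smaller amount (log2 difference 0.62 ± 0.11, adjusted p = 2.4e-05). The scaffolds that hold transporters in the brush border differed in direction. Pdzk1 averaged 52.0 ± 23.0 CPM in duodenum and 609 ± 41.0 CPM in kidney cortex, lower in duodenum. Slc9a3r2 was also lower, at 8.43 ± 2.77 CPM in duodenum and 52.5 ± 5.80 CPM in kidney cortex. Slc9a3r1 was higher in duodenum, at 241 ± 41.0 CPM in duodenum and 93.9 ± 27.0 CPM in kidney cortex. Both Slc37a1 and Slc37a2, exchangers of sugar phosphate and phosphate, were higher in duodenum by the 4-fold rule. Slc37a1 averaged 58.9 ± 14.4 CPM in duodenum and 1.68 ± 0.773 CPM in kidney cortex. Slc37a2 averaged 76.0 ± 22.8 CPM in duodenum and 1.44 ± 0.325 CPM in kidney cortex. Their relative Slc37a4, of the glucose-releasing pathway, was lower in duodenum (log2 difference -0.54 ± 0.13, adjusted p = 0.001), and Slc37a3 did not pass (log2 difference -0.06 ± 0.12, adjusted p = 0.688). The 250 bases before the RefSeq start of Slc34a1 (chr13:55399398-55399647, plus strand, GRCm38.p6) are shown for the mineral gene with the largest fitted difference. They hold GTTAAT, 1 of the short motifs searched, on each strand, 89 to 84 and 61 to 56 bases before the start.
Slc34a1: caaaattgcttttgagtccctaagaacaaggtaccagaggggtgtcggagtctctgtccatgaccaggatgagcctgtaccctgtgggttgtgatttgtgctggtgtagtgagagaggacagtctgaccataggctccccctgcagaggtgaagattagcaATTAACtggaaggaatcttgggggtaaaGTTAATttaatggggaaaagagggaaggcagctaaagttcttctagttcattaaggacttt

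Genes of vitamin D uptake and breakdown were mostly lower in duodenum. Of 10 listed genes, 8 were tested, 1 was higher in duodenum and 7 lower, beside 36% and 35.2% of all tested genes. Lrp2, megalin, the endocytic receptor that recovers vitamin D with its binding protein, had 0, 0.375 and 1.58 CPM in duodenum and 1692, 1784 and 2005 CPM in kidney cortex. With 9 duodenal reads Lrp2 entered the test only through kidney cortex. Its kidney-over-duodenum read-rate ratio was 4893 with a 95% interval of 2577 to 10702.5. Its partner receptor Cubn averaged 4.35 ± 4.47 CPM in duodenum and 167 ± 17.8 CPM in kidney cortex. The endocytic adaptor Dab2 averaged 13.6 ± 1.51 CPM in duodenum and 509 ± 53.7 CPM in kidney cortex, and Amn, which brings Cubn to the membrane, was lower as well (log2 difference -1.87 ± 0.12, adjusted p = 7.38e-12). Cyp24a1, the enzyme that breaks the hormone down, had 0 reads in duodenum and 8.46, 13.2 and 36.8 CPM in kidney cortex, where library 1 was the highest. With 233 kidney reads it was at least 132-fold lower in duodenum. Cyp27b1, the activating hydroxylase, was too low to test, with 2 reads in duodenum and 27 in kidney cortex (kidney-over-duodenum read-rate ratio of 22.9 with a 95% interval of 5.76 to 199). Cyp27a1, a hydroxylase of vitamin D and bile acid synthesis, averaged 14.8 ± 5.74 CPM in duodenum and 28.8 ± 3.02 CPM in kidney cortex. Gc, the plasma vitamin D binding protein, had 0, 0.418 and 17.96 CPM in duodenum and 60.3, 71.0 and 93.2 CPM in kidney cortex, and WT duodenum 3 held the highest duodenal value. Cyp3a11, a drug-metabolising enzyme that also breaks down vitamin D metabolites, was the exception. It had 43.5, 146 and 288 CPM in duodenum and 0 reads in kidney cortex, at least 646-fold higher in duodenum. Reads shared with its close relatives of the Cyp3a family could not be told apart.

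Vdr itself, the nuclear receptor for the hormone, was present in both tissues and had 253, 468 and 623 CPM in duodenum and 178, 203 and 217 CPM in kidney cortex. Every duodenal library was above every kidney library (log2 difference 1.24 ± 0.17, adjusted p = 3.29e-06). Of 15 listed partners and coregulators 13 were tested, 9 were higher in duodenum, 3 were lower and 1 did not pass. Of all tested genes 36% were higher and 35.2% lower. All fitted differences of the 13 were under 4-fold, a size that 23% of all tested genes reached. The median log2 difference was 0.55. Rxra, the receptor's dimer partner, averaged 68.9 ± 16.2 CPM in duodenum and 47.0 ± 4.50 CPM in kidney cortex (log2 difference 0.55 ± 0.14, adjusted p = 0.0013). The acetyltransferases Crebbp and Ep300 were higher in duodenum (log2 differences 1.04 ± 0.09 and 1.03 ± 0.12), as were Med1, which bridges the receptor to the Mediator complex (0.73 ± 0.10), and the corepressor Ncor1 (1.01 ± 0.11). Ncoa3, a coactivator of the p160 family, was lower (log2 difference -0.66 ± 0.16).

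Receptors for the mineral hormones were mostly lower in duodenum. Of 11 listed, 7 were tested, 6 were lower in duodenum and 1, Fgfr2, was higher (log2 difference 0.51). Of all tested genes 35.2% were lower and 36% higher. Pth1r, the parathyroid hormone receptor, had 0.968, 2.77 and 4.57 CPM in duodenum and 553, 673 and 772 CPM in kidney cortex (log2 difference -7.81 ± 0.26, adjusted p = 7.42e-15). Kl, klotho, which turns a growth factor receptor into the receptor of the bone-derived phosphate hormone, had 0, 0 and 0.528 CPM in duodenum and 229.8, 274 and 449.5 CPM in kidney cortex (kidney-over-duodenum read-rate ratio of 2520.4 with a 95% interval of 862 to 12226). Fgfr1, the receptor klotho pairs with, averaged 7.96 ± 3.29 CPM in duodenum and 36.5 ± 4.04 CPM in kidney cortex. Fgfr3 and Fgfr4 were also lower in duodenum (-1.34 ± 0.16 and -4.10 ± 0.36). Casr, the calcium-sensing receptor, had 3 reads in duodenum and 131 in kidney cortex (kidney-over-duodenum read-rate ratio of 74.1 with a 95% interval of 24.8 to 364). Calcr, the calcitonin receptor, had 0 reads in duodenum and 10 in kidney cortex and was not tested.

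Magnesium genes were mostly lower in duodenum. Of 12 listed, 11 were tested, 2 were higher in duodenum and 9 lower, beside 36% and 35.2% of all tested genes. The list's median log2 difference was -1.74. Fxyd2, the sodium pump's gamma subunit, had 0, 0.323 and 1.06 CPM in duodenum and 1463, 1726 and 2198 CPM in kidney cortex. Trpm6, the apical magnesium channel of the distal convoluted tubule, had 2 reads in duodenum and 331 in kidney cortex (kidney-over-duodenum read-rate ratio of 281 with a 95% interval of 77.1 to 2329). Egf, whose product regulates that channel, averaged 1.00 ± 0.611 CPM in duodenum and 729 ± 126 CPM in kidney cortex. Trpm7, the relative of Trpm6 that most cells carry, was lower by less (log2 difference -0.64 ± 0.11, adjusted p = 2.8e-05). The duodenum was higher in Cnnm4, a basolateral magnesium exporter known from the intestine, at 77.5 ± 13.98 CPM in duodenum and 15.6 ± 4.24 CPM in kidney cortex, and in Slc41a2, at 77.2 ± 13.5 CPM in duodenum and 19.3 ± 5.78 CPM in kidney cortex.

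Iron, zinc and manganese genes were mostly higher in duodenum. Of 16 listed, 15 were tested, 13 were higher in duodenum and 1 lower, beside 36% and 35.2% of all tested genes. Of the 13, 7 passed the 4-fold rule, beside 10.9% of all tested genes. Cybrd1, the brush border ferric reductase, had 173, 588 and 1247 CPM in duodenum and 0, 0.182 and 0.876 CPM in kidney cortex. With 5 kidney reads Cybrd1 entered the test only through duodenum. Its duodenum-over-kidney read-rate ratio was 2254 with a 95% interval of 966 to 6942. Slc11a2, the apical iron importer, averaged 368 ± 168 CPM in duodenum and 53.5 ± 8.22 CPM in kidney cortex. Slc40a1, ferroportin, the cellular iron exporter, had 455, 746 and 989 CPM in duodenum and 47.7, 56.7 and 71.1 CPM in kidney cortex, and Heph, the ferroxidase that works with it, averaged 126 ± 38.1 CPM in duodenum and 12.03 ± 1.39 CPM in kidney cortex. Tfrc, the transferrin receptor, and Fth1, the ferritin heavy chain, were higher in duodenum by less (1.57 ± 0.22 and 0.72 ± 0.20), and WT duodenum 4 had the lowest Fth1, 1728 CPM. Slc39a4, the zinc importer of enterocytes, had 209 ± 68.4 CPM in duodenum and 2 reads in kidney cortex (duodenum-over-kidney read-rate ratio of 1702 with a 95% interval of 471 to 14055). Slc30a10, a manganese exporter, had 201, 268 and 306 CPM in duodenum and 0 reads in kidney cortex, at least 1379-fold higher in duodenum. Slc39a14, a manganese and iron importer, averaged 150.4 ± 37.3 CPM in duodenum and 13.6 ± 4.70 CPM in kidney cortex. Slc39a8, an importer of the same metals, was the 1 gene lower in duodenum, at 5.98 ± 1.18 CPM in duodenum and 42.4 ± 5.17 CPM in kidney cortex. The zinc exporter Slc30a1 did not pass (log2 difference -0.09 ± 0.11, adjusted p = 0.472).

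Enterocyte genes of digestion were mostly higher in duodenum. Of 17 brush border digestion genes 13 were tested, 10 were higher in duodenum, 2 lower, and the median log2 difference was 1.15. The shares over all tested genes were 36% higher and 35.2% lower. Sis, sucrase-isomaltase, had 2517, 3650.4 and 3837 CPM in duodenum and 0 reads in kidney cortex, at least 16979.9-fold higher in duodenum. Alpi, intestinal alkaline phosphatase, had 2111, 3852 and 4589.6 CPM in duodenum and 0 reads in kidney cortex, at least 20205-fold higher in duodenum, and WT duodenum 4 was the lowest library for both. Alpl, the tissue-nonspecific alkaline phosphatase, was the reverse, with 0.314, 0.979 and 1.61 CPM in duodenum and 205, 242 and 262 CPM in kidney cortex. Enpep and Mep1a, peptidases that the proximal tubule also carries, were lower (-0.99 ± 0.28 and -4.72 ± 0.20). Promoters of Sis (chr3:72967864-72968113, minus strand) and Alpi (chr1:87101607-87101856, minus strand), 250 bases before the RefSeq start of GRCm38.p6, are shown as the regulatory sequence of these duodenal markers, read 5' to 3' along each gene.
Sis: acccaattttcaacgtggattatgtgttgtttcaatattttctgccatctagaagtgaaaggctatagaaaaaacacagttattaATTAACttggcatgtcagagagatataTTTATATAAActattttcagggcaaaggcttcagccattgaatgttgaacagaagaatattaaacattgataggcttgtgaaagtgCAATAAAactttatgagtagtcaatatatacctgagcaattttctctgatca
Alpi: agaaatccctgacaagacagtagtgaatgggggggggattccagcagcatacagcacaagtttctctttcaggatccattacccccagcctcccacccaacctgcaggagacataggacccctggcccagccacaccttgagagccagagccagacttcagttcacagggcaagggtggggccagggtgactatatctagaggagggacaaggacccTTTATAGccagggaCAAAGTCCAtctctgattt

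Capitals mark TTTATNG, a form of the CDX site, 52 to 46 bases before the Sis start, on the opposite strand, and 33 to 27 bases before that of Alpi. They also mark TATAAA, as a pair of overlapping matches in Sis and as a match on the opposite strand inside the CDX-type match of Alpi. The other matches are GTTAAT in Sis, on the opposite strand 165 to 160 bases before the start, and CAAAGTCCA in Alpi, 19 to 11 bases before it. All 4 motifs were searched on both strands of 250 bases, in the 9931 tested genes with a RefSeq promoter and in all 32851 promoters. CAAAGTCCA was in 1.31% of the promoters of genes at least 4-fold higher in duodenum and 0.396% of those at least 4-fold lower, against 0.408% for all tested genes and 0.384% of all promoters. GTTAAT was in 5.57%, 8.45%, 4.48% and 6.43% of the same groups in the same order, TTTATNG in 9.51%, 7%, 6.36% and 9.81%, and TATAAA in 11.7%, 8.98%, 7% and 12.4%. These shares are a description, with no test, and most genes of either tissue held no match.

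Nutrient transporters divided between the tissues. Of 10 tested sugar transporters 3 were higher in duodenum and 6 lower, with a median log2 difference of -0.97. All tested genes divided at 36% higher and 35.2% lower. Slc5a1, the sodium-glucose cotransporter of the intestine, had 2295, 3539 and 5070.2 CPM in duodenum and 87.2, 113 and 119.5 CPM in kidney cortex, and Slc5a2, that of the early proximal tubule, had 1 read in duodenum and 4732 in kidney cortex (kidney-over-duodenum read-rate ratio of 8029 with a 95% interval of 1440.4 to 317214). Slc5a10, a sodium-dependent sugar carrier of the kidney, had 1 read in duodenum and 4824 in kidney cortex. The fructose transporter Slc2a5 had 819, 1107 and 2228 CPM in duodenum and 132, 143 and 219 CPM in kidney cortex, WT duodenum 6 being the highest, and the basolateral glucose transporter Slc2a2 averaged 904 ± 174 CPM in duodenum and 221 ± 29.9 CPM in kidney cortex. Slc15a1, the low-affinity peptide transporter, averaged 132 ± 37.0 CPM in duodenum and 0.820 ± 1.34 CPM in kidney cortex, while Slc15a2, its high-affinity renal relative, averaged 6.16 ± 1.91 CPM in duodenum and 132 ± 20.3 CPM in kidney cortex. Over 18 amino acid and peptide transporters 15 were tested and 2 were higher in duodenum, against 10 lower. Slc6a18, a neutral amino acid carrier, had 5 reads in duodenum and 5493 in kidney cortex. Cltrn, the collectrin that brings such carriers to the membrane, averaged 0.724 ± 0.6252 CPM in duodenum and 1018 ± 101 CPM in kidney cortex. Slc6a19, which works with collectrin in kidney, was lower by less (log2 difference -0.84 ± 0.19, adjusted p = 0.000944). Slc26a3, the chloride-bicarbonate exchanger of the gut, had 435 ± 164 CPM in duodenum and 0 kidney reads. Slc26a4, pendrin of the intercalated cell, averaged 0.849 ± 1.05 CPM in duodenum and 54.8 ± 10.95 CPM in kidney cortex. Slc12a2, the chloride-loading cotransporter of crypts, was higher in duodenum (195 ± 46.5 CPM in duodenum and 27.1 ± 3.58 CPM in kidney cortex). Its relative Slc12a1 of the thick ascending limb had 0 reads in duodenum and 12365 in kidney cortex.

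Microvillus and lipid genes were higher in duodenum almost throughout. All 15 tested microvillus genes were higher, 10 of them by 4-fold, with a median log2 difference of 2.46. Of all tested genes 36% were higher and 10.9% higher by at least 4-fold. Vil1, villin of the core bundle, averaged 625 ± 152 CPM in duodenum and 69.7 ± 5.17 CPM in kidney cortex. Myo1a, the motor that ties the bundle to the membrane, had 28510 reads in duodenum and 1 in kidney cortex (duodenum-over-kidney read-rate ratio of 16802 with a 95% interval of 3015 to 663657), and Cdhr5, a cadherin of the tip links, averaged 1106 ± 339.9 CPM in duodenum and 222 ± 14.5 CPM in kidney cortex. Of 20 genes of lipid absorption 17 were higher in duodenum and 2 lower, with a median of 4.89. The apolipoprotein Apoa4 averaged 1678 ± 634 CPM in duodenum and 7.25 ± 2.91 CPM in kidney cortex. Apoa1, the main protein of high-density lipoprotein, averaged 3212 ± 1308 CPM in duodenum and 1.03 ± 0.611 CPM in kidney cortex. Mttp, which loads lipid onto apolipoprotein B, averaged 879 ± 102 CPM in duodenum and 11.3 ± 2.67 CPM in kidney cortex. The cytosolic fatty acid binder Fabp1 averaged 2395 ± 524 CPM in duodenum and 2.81 ± 2.12 CPM in kidney cortex, and Fabp2, the intestinal form, had 0 kidney reads and was at least 4879-fold higher in duodenum. Its relative Fabp3, the heart-type form, averaged 0.820 ± 0.516 CPM in duodenum and 90.8 ± 19.7 CPM in kidney cortex. Cd36, a fatty acid receptor, and Plin2, a coat protein of lipid droplets, were the pair lower in duodenum (-3.54 ± 0.31 and -0.38 ± 0.14).

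Secretory and crypt cells were detected through their markers, and most of those markers were at or near 0 in kidney cortex. All 7 tested goblet cell genes, 6 Paneth cell genes, 7 enteroendocrine genes and 4 genes of Brunner's glands and gastric-type mucus were higher in duodenum by at least 4-fold, as were 10.9% of all tested genes. In that order 4, 6, 2 and 2 of them had 0 reads in kidney cortex. They could enter the test only through duodenum, so their direction was fixed. Members with a few kidney reads, among them Fcgbp (4), Chgb (2), Ghrl (1), Sct (7), Muc6 (2) and Gkn3 (3), also entered only through duodenum. The counts of these lists are therefore a description. Brunner's glands, the mucous glands of the duodenal wall, are marked by Muc6 and Tff2. Their 4 listed genes summed to 19341 to 41403 CPM in duodenum and 0 to 0.876 CPM in kidney cortex. Muc6 had 3590.1, 4288 and 7491 CPM in duodenum and 2 kidney reads. Muc2, the gel-forming mucin of goblet cells, had 288, 421 and 494 CPM, and Lyz1, the lysozyme of Paneth cells, had 261, 428 and 503 CPM, both with 0 kidney reads. The defensin Defa24 averaged 1066 ± 187 CPM, with reads of its near-identical relatives uncertain. Among hormones of the upper gut Gip had 34.0 ± 7.20, Cck 84.0 ± 18.2 and Sct 26.3 ± 6.98 CPM in duodenum. Stem cell genes were higher in 8 of 9 and lower in 1, beside 36% and 35.2% of all tested genes. Olfm4, a crypt base marker, averaged 167 ± 25.5 CPM in duodenum and 6.47 ± 2.49 CPM in kidney cortex, and Znrf3, a Wnt inhibitor, was the 1 lower in duodenum (log2 difference -0.85 ± 0.22, adjusted p = 0.00173). Of 17 tested proliferation genes 16 were higher and 1 did not pass, with Mki67 at 60.0 ± 24.9 CPM in duodenum and 4.12 ± 1.93 CPM in kidney cortex.

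Markers of muscle and of antibody-secreting cells were higher in duodenum. Smooth muscle genes were higher in 9 of 10, beside 36% of all tested genes. They summed to 1063 to 1649 CPM in duodenum and 309.7 to 368 CPM in kidney cortex. Myh11, the smooth muscle myosin heavy chain, averaged 157 ± 33.0 CPM in duodenum and 14.3 ± 2.96 CPM in kidney cortex. Igha, the heavy chain of immunoglobulin A, had 1485, 2781 and 4659 CPM in duodenum and 2.91, 8.40 and 52.6 CPM in kidney cortex, and Jchain, which joins it into dimers, averaged 459.9 ± 193 CPM in duodenum and 3.14 ± 3.92 CPM in kidney cortex. Pigr, the epithelial receptor that carries those dimers to the lumen, had 5181, 7058 and 8576 CPM in duodenum and 10.2, 15.4 and 124 CPM in kidney cortex. WT kidney 1 was the kidney library highest in Igha, Jchain and Pigr. It also stood apart in antigen presentation. The 7 MHC class II genes summed to 2601 CPM there and to 376 to 424 CPM in the other 5 kidney libraries. H2-Ab1, a class II chain, did not pass with all 12 libraries (log2 difference -1.18 ± 0.67, adjusted p = 0.137), and without WT kidney 1 its log2 difference was 0.038. Of the 7 genes, 2 were called lower in duodenum, and 1 when WT duodenum 1, 2, 3, 4 or 6 or WT kidney 1 was left out. H2-Eb1 had a log2 difference of -1.31 ± 0.38, or -0.79 without WT kidney 1.

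Pancreatic enzymes varied widely among the duodenal libraries. The 9 listed acinar genes in both tables summed to 1451, 41.9, 16412, 4718, 7960.0 and 41.3 CPM in WT duodenum 1 to 6, against 171 to 230.1 CPM in kidney cortex. Libraries 2 and 6 were at the low end and library 3 at the top. The kidney sum was nearly all Cela1, an elastase, which had 25.2, 819 and 3861 CPM in duodenum and 168, 204 and 230.1 CPM in kidney cortex. Its ranges overlapped, and its call (log2 difference 2.63 ± 1.06, adjusted p = 0.0447) was lost without WT duodenum 3, 4 or 5 or any 1 WT kidney library (adjusted p 0.0631 to 0.119), and also with limma-voom (log2 0.65, adjusted p = 0.681), with no filter and with upper-quartile scaling. Pnlip, pancreatic lipase, had 2.49, 522 and 2724 CPM in duodenum and 0, 0 and 1.09 CPM in kidney cortex, and Cpb1, a carboxypeptidase of pancreatic juice, had 2.01, 399 and 2060.2 CPM in duodenum and 0, 0 and 0.728 CPM in kidney cortex. Both passed with edgeR (log2 difference 11.86 ± 2.38, adjusted p = 0.000992 for Pnlip) and not with limma-voom (adjusted p = 0.448 for Pnlip and 0.439 for Cpb1). Of 4 acinar genes tested 4 were called higher. Without WT duodenum 1 or 6 the number called was 2, and fewer of the 4 were then tested, so the drop is not of lost calls alone. The part of pancreatic RNA in other duodenal values was not tested.

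**Figure D3:**
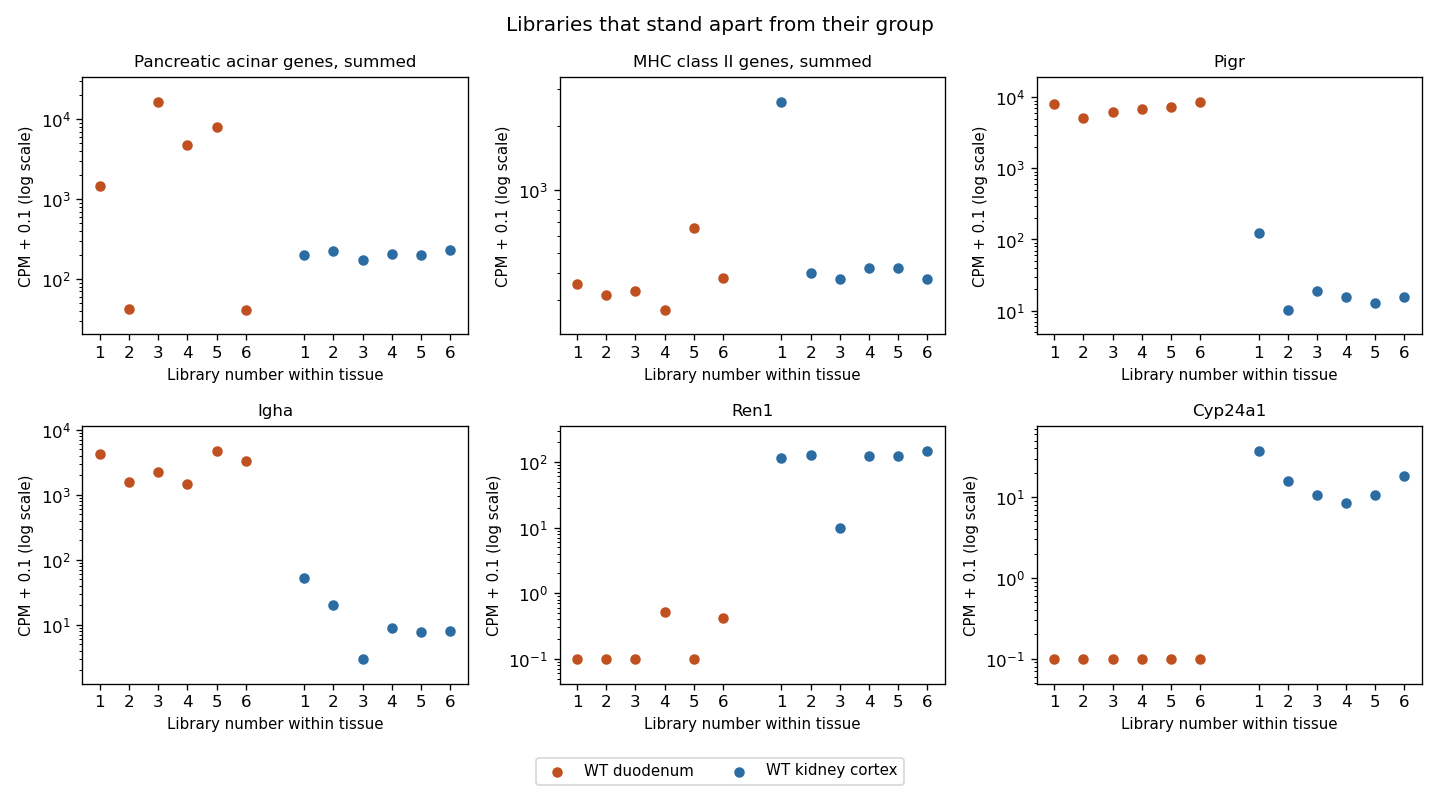
Summed or single-gene CPM + 0.1 (log scale) in the 6 WT duodenal (orange, left) and 6 WT kidney cortex libraries (blue, right), by library number. WT duodenum 3 is highest in pancreatic genes (16412 CPM summed), WT kidney 1 is the highest kidney library in MHC class II genes, Pigr, Igha and Cyp24a1, and WT kidney 3 the lowest kidney library in Ren1 (9.82 CPM).

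The kidney cortex libraries held markers of every listed nephron segment. Of 20 proximal tubule genes 19 were tested, 17 were lower in duodenum and 1 higher, with a median log2 difference of -11.25. Members with few duodenal reads, among them Slc34a1 (1), Slc5a2 (1), Slc22a8 (1) and Kap (3), could enter the test only through kidney cortex. The count is a description beside the 35.2% of all tested genes lower. Miox, which opens the inositol ring, had 1 read in duodenum and 27266 in kidney cortex. Pck1, the enzyme that commits carbon to glucose synthesis, averaged 6.597 ± 4.59 CPM in duodenum and 3672 ± 1121 CPM in kidney cortex. The urate carrier Slc22a12 had 2 reads in duodenum and 8729 in kidney cortex. Slc13a1, a sulfate carrier of both organs, was the 1 higher in duodenum, at 949 ± 355 CPM in duodenum and 347 ± 73.7 CPM in kidney cortex. All 11 tested genes of the thick ascending limb and all 11 of the connecting tubule and principal cells were lower in duodenum by at least 4-fold, as were all 8 of intercalated cells. In that order 5, 1 and 3 of them had 0 duodenal reads and could enter the test only through kidney cortex. Members with a few duodenal reads, among them Umod (4), Cldn16 (3), Cldn19 (1) and Slc4a9 (2), also entered only through kidney cortex. The counts of these lists are a description beside the 12.1% of all tested genes lower by at least 4-fold. Umod, uromodulin, had 0, 0 and 0.321 CPM in duodenum and 1446, 1839.8 and 2017 CPM in kidney cortex. The water channel Aqp2 had 0 duodenal reads and 73.5, 125 and 174 CPM in kidney cortex, and the proton pump subunit Atp6v1g3 had 0 and 96.5, 109 and 129 CPM. Slc12a3, the thiazide-sensitive cotransporter, had 1 read in duodenum and 12581 in kidney cortex. Distal convoluted tubule genes were lower in 8 of 9, the exception being Stk39, a kinase of many epithelia (log2 difference 0.68 ± 0.13, adjusted p = 8.35e-05). Members with few or no duodenal reads, among them Slc12a3 (1) and Trpm6 (2), also entered only through kidney cortex, so this count is a description.

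Glomerular and vascular genes were mostly lower in duodenum too. The counts of this paragraph stand beside 35.2% of all tested genes lower, 12.1% by at least 4-fold, and 36% higher. Podocyte genes were lower in duodenum in 7 of 10 and higher in 3. Synpo and Plce1, which other cells also use, were among the 3 higher in duodenum (log2 differences 0.91 ± 0.15 and 1.91 ± 0.17). All 11 endothelial genes were lower, 6 by 4-fold, with Kdr, the main VEGF receptor, at 27.4 ± 5.48 CPM in duodenum and 104 ± 10.1 CPM in kidney cortex, and Ehd3, enriched in glomerular endothelium, at 3.40 ± 1.17 CPM in duodenum and 65.8 ± 9.20 CPM in kidney cortex. Ren1, renin, had 2 reads in duodenum and 9.82, 123 and 145 CPM in kidney cortex, and WT kidney 3 was the low one. Red cell genes were lower in all 5 tested, Hbb-bs averaging 73.1 ± 31.1 CPM in duodenum and 685 ± 132 CPM in kidney cortex. No adrenal cortex gene passed the filter on low counts, and the 3 listed in both tables summed to 0.528 to 3.77 CPM in duodenum and 0.876 to 2.85 CPM in kidney cortex. Of 14 tested drug carriers 13 were lower, and the efflux pump Abcb1a was higher (196 ± 75.3 CPM in duodenum and 9.13 ± 4.43 CPM in kidney cortex). Among the lower, Slc22a8 had 1 read in duodenum and 13848 in kidney cortex, and Slc22a2 had 0 and 6484. Carriers with few or no duodenal reads, as these, could enter the test only through kidney cortex, so this count is a description.

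Transcription factors of each organ were mostly higher in that organ. All 21 tested kidney factors were lower in duodenum by at least 4-fold. Of these, 10 had 0 counts in every duodenal library and could enter the test only through kidney cortex, so the count is a description beside the 12.1% of all tested genes. Pax8, a factor of the nephron lineage, averaged 3.46 ± 1.27 CPM in duodenum and 59.8 ± 6.01 CPM in kidney cortex. Tfap2b and Hoxa9 had 0 duodenal reads and 2296 and 1207 kidney reads, and Hoxd8 averaged 1.26 ± 0.972 CPM in duodenum and 119 ± 11.5 CPM in kidney cortex. Of 13 tested intestinal factors 10 were higher, all by 4-fold, beside 10.9% of all tested genes. Among the 13, 2 had 0 counts in every kidney library and could enter the test only through duodenum. This count is therefore a description too. Klf5, a factor of crypt growth, averaged 774 ± 49.4 CPM in duodenum and 5.07 ± 1.82 CPM in kidney cortex, and Hnf4g 59.7 ± 11.7 CPM in duodenum and 2.40 ± 1.57 CPM in kidney cortex. Its relative Hnf4a, which both organs use, did not pass (log2 difference -0.23 ± 0.12, adjusted p = 0.0897), and passed without WT duodenum 6 (log2 difference -0.31, adjusted p = 0.0153) and with all libraries under upper-quartile scaling (-0.38, adjusted p = 0.00391) or limma-voom (-0.25, adjusted p = 0.0396). Tfcp2l1, known also from the collecting duct, was lower in duodenum (log2 difference -3.21 ± 0.14, adjusted p = 7.3e-15). Cdx2, the factor that sets intestinal identity, was listed in the duodenum table only, at 72.8 ± 8.08 CPM.

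Lists of general cell functions are given beside the 36% higher and 35.2% lower of all tested genes. Oxidative phosphorylation genes had a median log2 difference of -0.31, with 11 of 21 lower in duodenum, all under 4-fold. The median for 20 ribosomal protein genes was 0.59, with 12 higher in duodenum. Genes of peroxisomes and fatty acid oxidation were lower in 12 of 17, with Acadm, a dehydrogenase of medium-chain fats, at 113 ± 15.6 CPM in duodenum and 752 ± 90.7 CPM in kidney cortex, and Cat, catalase, at 84.6 ± 24.1 CPM in duodenum and 530.5 ± 108 CPM in kidney cortex. Immediate early genes, which cells switch on within minutes of a stimulus, were higher in 6 of 8. Fos had 30.9, 60.9 and 104 CPM in duodenum and 0, 0.182 and 1.75 CPM in kidney cortex, and Ier2 averaged 24.4 ± 5.52 CPM in duodenum and 5.09 ± 2.19 CPM in kidney cortex. Interferon response genes were higher in 8 of 12, with Ifit1 at 299.6 ± 122 CPM in duodenum and 22.2 ± 13.1 CPM in kidney cortex and Oasl2 at 52.2 ± 8.22 CPM in duodenum and 10.9 ± 3.61 CPM in kidney cortex. Of 13 tested clock genes 5 were higher in duodenum and 4 lower, 1 each way by 4-fold, with a median of -0.22. Arntl was the 1 higher by 4-fold (log2 difference 2.59). Among the lower were the output factors Dbp, Tef and Hlf (-1.09 ± 0.26, -1.69 ± 0.15 and -2.63 ± 0.33), and the time of collection is not in the labels. Of 9 carbonic anhydrases tested, 3 were higher and 4 lower. Car9 averaged 180.4 ± 38.04 CPM in duodenum and 2.59 ± 1.55 CPM in kidney cortex, and Car14 averaged 0.449 ± 0.471 CPM in duodenum and 159 ± 22.3 CPM in kidney cortex.

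**Figure D4:**
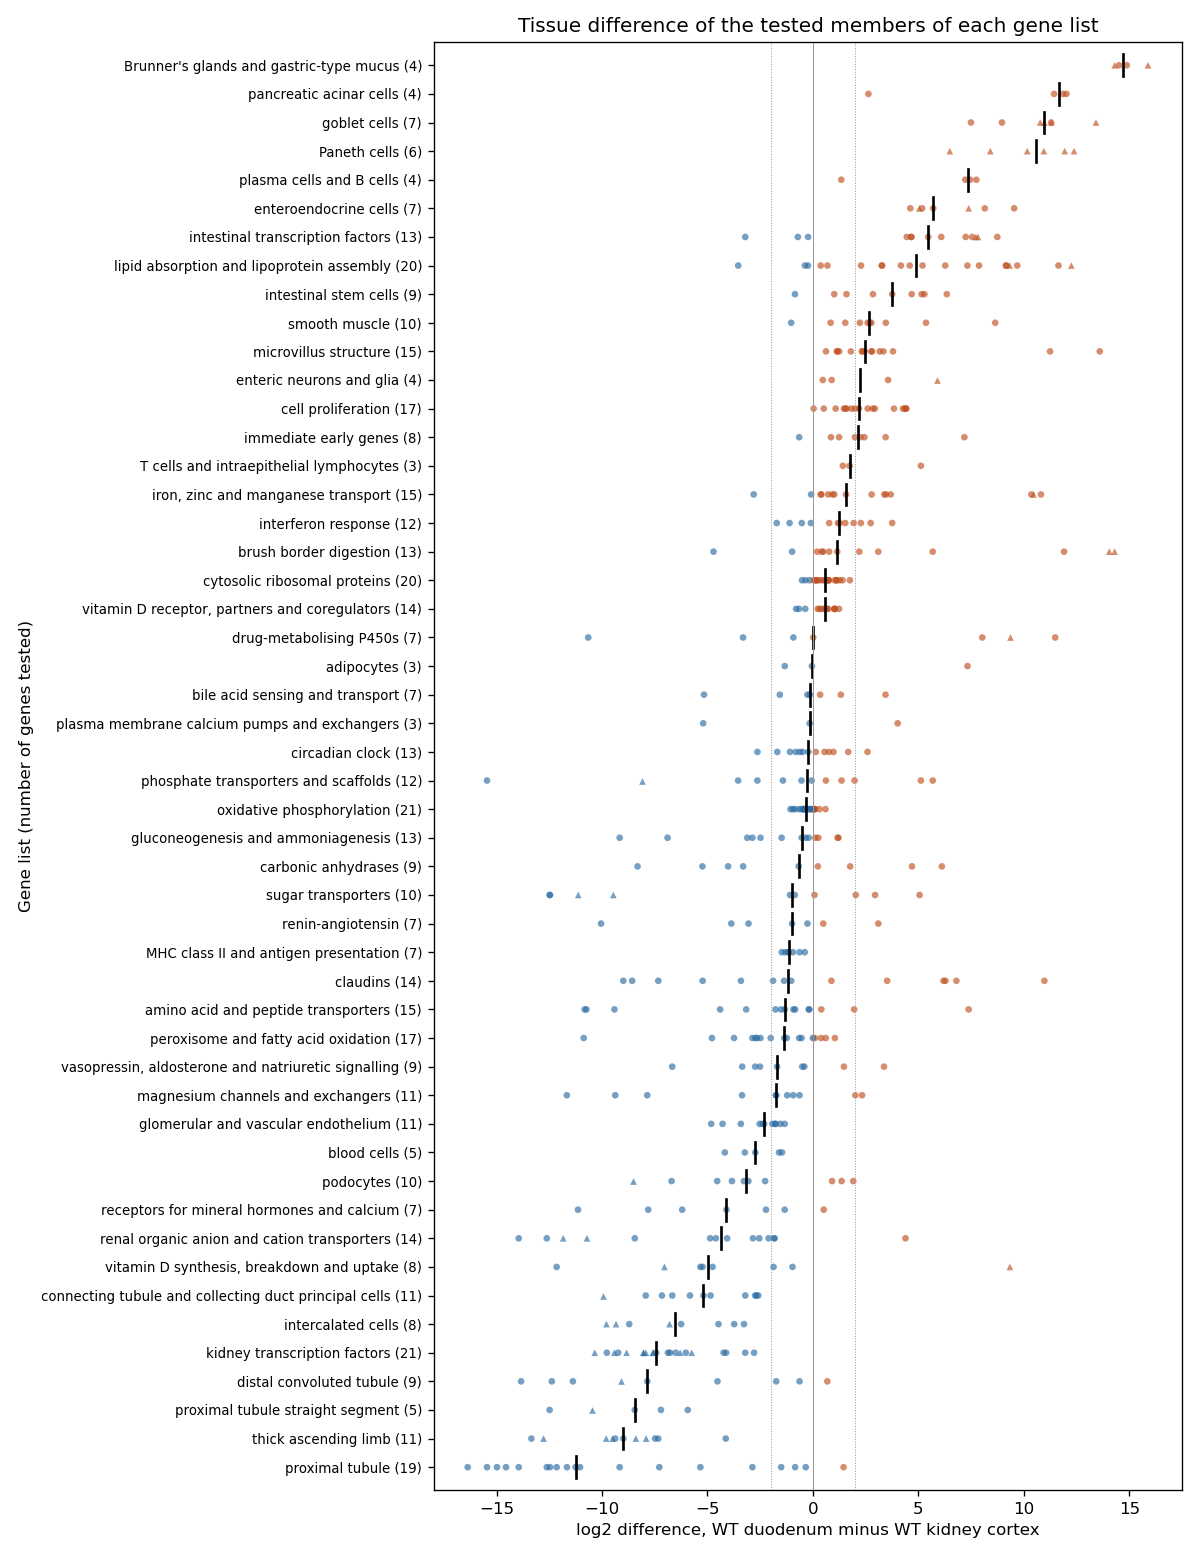
Log2 difference, WT duodenum minus WT kidney cortex, of each tested member of the gene lists with at least 3 tested genes (orange above 0, blue below 0), sorted by the list's median (black bar); triangles are bounds for genes with 0 reads in one tissue, and dotted lines mark 4-fold. Lists of Brunner's glands, pancreatic acinar, goblet and Paneth cells have the highest medians and proximal tubule and thick ascending limb among the lowest, while immediate early genes, at a median of 2.12, lie past the 4-fold line.

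Some tissue markers could not enter the test because their symbol was in 1 table only, for a reason the sources used here do not give. The share of counts in such symbols was 1.11 to 1.90% in duodenum and 0.237 to 0.297% in kidney cortex. Above 1 CPM there were 140 in the duodenum table and 86 in the kidney table. The highest in duodenum were Gkn1 (1928 ± 892 CPM) and Gkn2 (1398 ± 587 CPM), gastrokines of gastric-type mucus, then Tm4sf20 (1854 ± 845 CPM), 2210407C18Rik (980.1 ± 222 CPM) and Clca1 (969 ± 197 CPM), a goblet cell product. In kidney cortex they were Akr1c21 (1088 ± 198 CPM), a steroid dehydrogenase, the organic anion carriers Slc22a6 (443 ± 60.5 CPM) and Slc22a19 (192 ± 30.9 CPM), Slc7a12 (193 ± 57.8 CPM) and Kcnj1 (112 ± 16.2 CPM), the potassium channel of the distal nephron. No difference was computed for them.

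The same contrast was run in libraries the WT comparison did not use. Duodenum and kidney cortex of KO mice differed in 8471 of 13244 genes (64%), with 31.4% higher in duodenum and 32.6% lower, and those of AF2 mice in 8403 of 13229 (63.5%), with 31% higher and 32.5% lower. Of the 3037 genes at least 4-fold different in WT, 2909 were tested in KO, 2870 were called in the same direction there, and 0 had the opposite sign. In AF2 2886 were tested, 2849 were called in the same direction, and 1, Cyp4b1, had the opposite sign (log2 0.17 ± 0.42 in AF2 against -2.49 ± 0.33 in WT). Cyp4b1 did not pass in AF2 (adjusted p = 0.742), and its value there was -0.21 without AF2 duodenum 1 and -0.14 without AF2 kidney 4. Of the mineral genes called in WT, 72 of 82 tested were called in the same direction in KO and 73 of 81 in AF2. Over all genes called in WT and tested there, the share was 83.2% in KO and 80.8% in AF2. Ncoa1, a p160 coactivator, had the opposite sign in KO and Cldn4 in AF2. Neither passed there, and the sign was that of WT when KO duodenum 4 or KO kidney 1 was left out for Ncoa1 and AF2 duodenum 3 or 4 for Cldn4. Trpv6 and Cyp24a1 were too low to test in either mutant. Atp2b1 differed by 3.71 ± 0.13 in KO and 3.99 ± 0.17 in AF2 against 4.02 ± 0.13 in WT, in log2. Slc8a1 differed by -5.71 ± 0.17 in KO and -4.70 ± 0.23 in AF2 against -5.21 ± 0.18 in WT.

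A change of the tissue difference itself was tested in 1 fit of all 28 libraries, and it was called for 8 of 14944 genes in KO (0.0535%) and 57 in AF2 (0.381%). Leaving out 1 library at a time gave 0 (without KO kidney 3) to 23 (without WT duodenum 4) in KO and 19 (without AF2 duodenum 3) to 123 (without WT duodenum 4) in AF2. Both tests share the WT libraries. Of 95 mineral genes in that fit, S100g and Slc37a2 were called in KO and S100g in AF2. S100g averaged 1664 ± 1065 CPM in KO duodenum and 112 ± 23.6 CPM in KO kidney cortex (SD, n = 4 each), and 796 ± 339 CPM in AF2 duodenum and 62.8 ± 13.6 CPM in AF2 kidney cortex (n = 4 each), against 1653 ± 586 CPM in duodenum and 905 ± 324 CPM in kidney cortex for WT. The kidney libraries of both mutants lay below every WT kidney library, while the duodenal ranges overlapped between genotypes. The tissue difference of S100g exceeded that in WT by 3.06 ± 0.54, adjusted p = 0.0401, in KO, and by 2.83 ± 0.54, adjusted p = 0.0206, in AF2, on the log2 scale with edgeR. Slc37a2 averaged 39.3 ± 8.44 CPM in KO duodenum and 3.05 ± 0.798 CPM in KO kidney cortex, and 48.0 ± 13.3 CPM in AF2 duodenum and 2.07 ± 0.825 CPM in AF2 kidney cortex. Its tissue difference in KO minus that in WT was -1.99 ± 0.40, adjusted p = 0.0401. In AF2 minus WT it was -1.12 ± 0.43, adjusted p = 0.29. The S100g call in KO was lost without WT duodenum 6, KO duodenum 2, KO duodenum 3, WT kidney 5, WT kidney 6, KO kidney 2, KO kidney 3, KO kidney 4, AF2 kidney 1 or AF2 kidney 2 (log2 2.91 to 3.18, edgeR's adjusted p 0.0515 to 0.137), and that in AF2 without AF2 duodenum 1 or AF2 kidney 1 (log2 2.72 to 2.79, adjusted p 0.0545 to 0.0593). The Slc37a2 call in KO was lost without WT duodenum 2, KO duodenum 1, KO duodenum 2, WT kidney 1, WT kidney 2, WT kidney 5, WT kidney 6, KO kidney 2, KO kidney 3, KO kidney 4, AF2 kidney 1 or AF2 kidney 2 (log2 -2.05 to -1.82, adjusted p 0.0515 to 0.137). Vdr averaged 109 ± 9.24 CPM in KO duodenum and 18.5 ± 6.98 CPM in KO kidney cortex, and 389 ± 27.9 CPM in AF2 duodenum and 86.1 ± 11.6 CPM in AF2 kidney cortex, and its tissue difference did not pass as changed in KO (1.37 ± 0.29, adjusted p = 0.0704) or in AF2 (0.97 ± 0.28, adjusted p = 0.134). It passed in KO without WT duodenum 1, WT duodenum 4 or KO kidney 1 (log2 1.24 to 1.54, adjusted p 0.0216 to 0.0374) and in AF2 without KO kidney 4 (log2 0.97, adjusted p 0.0458). The 3' reads that remain in KO need not cover the deleted part of the gene, so they do not check the deletion.

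**Figure D5:**
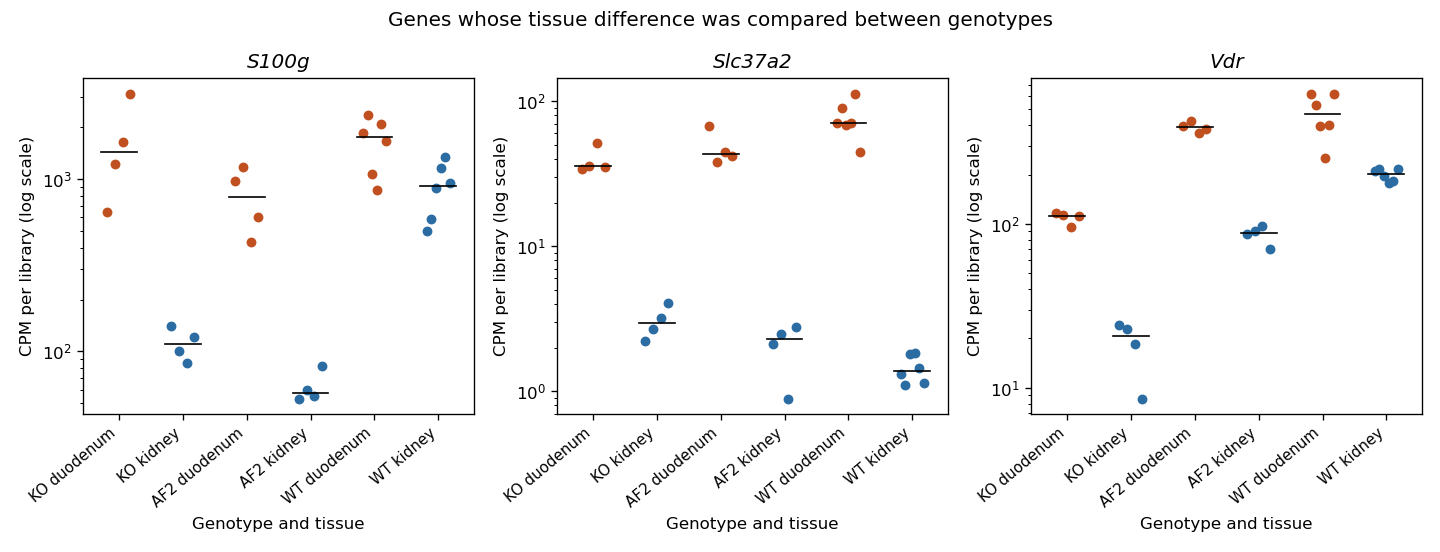
CPM (log scale) of S100g, Slc37a2 and Vdr in each library of the 6 groups, duodenum in orange and kidney cortex in blue, with the median as a black line (n = 4 per mutant group, 6 per WT group). The mutants' kidney values of S100g lie below all WT kidney values, while the duodenal values overlap.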

How the data were processed

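RNA of homogenized duodenum and kidney cortex was made into QuantSeq 3' libraries from total RNA, per the labels' protocols. The authors deposited 1 table of whole-number counts per tissue, with gene symbols in rows and libraries in columns. The values were not normalized in these tables. The submitters' processing notes name the mouse build mm10 and limma 3.34.9, with no role for either. No aligner, counting tool or use of strand is given by any source used here, so reads of overlapping or antisense genes and of near-identical relatives cannot be told apart. Every count was even. The tables listed 31179 symbols for duodenum and 30227 for kidney, and the 27271 in both were joined, so 3908 and 2956 symbols of 1 table stayed out of the tests.

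Columns were assigned to samples by the library codes in the labels and to groups by the titles. Genes were kept by edgeR's filterByExpr by tissue, scaled by TMM over both tissues, and tested with edgeR's robust quasi-likelihood F test (edgeR 4.0.16, R 4.3.3), two-sided, with Benjamini-Hochberg adjustment over all tested genes. The deposited counts were tested as they are, and levels are CPM computed from them. The mutant contrasts were fitted separately, and the interactions in 1 fit of all 28 libraries. A standard error is the absolute log2 difference divided by the root of F, and ± on a level is the SD. Intervals of read-rate ratios are exact and conditional on the pooled reads, and a bound gives the tissue without reads 3 reads in its pooled libraries. QuantSeq reads were used without molecular identifiers, so these cover counting error only.

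On simulated counts of 13052 genes of the WT contrast, 67 genes were changed by 2-fold, 61 by 4-fold and 69 by 8-fold. Of these, 64.2%, 96.7% and 100% were called, in that order, with 8 false calls. The changed genes were a far smaller share than the 71.1% called between the WT tissues. The simulation therefore does not measure recovery or false calls at that share. No libraries of a group held identical counts, and the smallest chi-square per degree of freedom between any pair was 2.35. Whether replicate numbers pair the tissues was checked by correlating deviations from the tissue means over 9049 genes. Coordinates are those of GENCODE vM21 (GRCm38/mm10), in which 26587 of the joined symbols (97.5%) were found, and promoters are those of RefSeq (GRCm38.p6).

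The gene lists, pairs and tests were chosen with earlier results of these data known. Genes were named by a rule. It took all mineral list genes and listed pairs, and the 12 most abundant genes each way among those 4-fold different without overlap. It also took up to 5 abundant members of each other list, up to 2 members of each list with the largest difference against it, and the 5 largest fitted differences each way above an average log2 CPM of 1. Last came the 5 most abundant symbols of each table alone and up to 5 genes of opposite sign in a mutant. Predicted genes (Gm, Rik) and mitochondrially encoded genes were left out of the abundant set. Alternatives were other scalings, no filter, limma-voom (limma 3.58.1), DESeq2 1.42.0, halved counts, all symbols, blocks, a fit of all libraries and leaving out each library. Some genes that the rule for naming selects are not reported here.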

Additional observations from a re-analysis of the deposited data

Results flagged for a closer look

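Within groups of 4 or 6 libraries, 52 values stood apart from their group by Dixon's criterion, over 351 groups examined, where chance marks about 1 group in 20. One was a library total, 25181916 counts in WT duodenum 2 against 3837906 to 6519522 in the other 5.

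WT kidney 1 stood above the other 5 kidney libraries in Cyp24a1 at 36.8 CPM (8.46 to 18.2 CPM in the others), Fos at 1.75 CPM (0 to 0.365 CPM in the others), H2-Ab1 at 855 CPM (80.0 to 105 CPM in the others), H2-Eb1 at 279 CPM (66.9 to 82.2 CPM in the others), Ifit1 at 47.3 CPM (10.7 to 21.6 CPM in the others), Igha at 52.6 CPM (2.91 to 20.1 CPM in the others), Jchain at 10.95 CPM (0.364 to 2.90 CPM in the others), Oasl2 at 17.5 CPM (6.55 to 10.6 CPM in the others), Pigr at 124 CPM (10.2 to 18.6 CPM in the others) and Slc15a1 at 3.51 CPM (0 to 0.569 CPM in the others). KO duodenum 3 was above its group in Slc37a2 at 51.9 CPM (34.0 to 35.9 CPM in the others). WT duodenum 1 was above its group in Trpm6 at 0.314 CPM (0 to 0.0802 CPM in the others). WT duodenum 3 was above its group in Gc at 17.96 CPM (0 to 1.85 CPM in the others), Kl at 0.528 CPM (0 to 0.160 CPM in the others) and Pck1 at 15.3 CPM (2.58 to 6.90 CPM in the others). WT duodenum 5 was above its group in Cyp27b1 at 0.510 CPM (0 to 0.0802 CPM in the others). WT duodenum 6 was above its group in Atp2b2 at 0.968 CPM (0 to 0.314 CPM in the others), Ncor1 at 1017 CPM (709 to 811 CPM in the others), Slc2a5 at 2228 CPM (819 to 1192 CPM in the others) and Slc41a2 at 102 CPM (65.3 to 79.0 CPM in the others). WT kidney 2 was above its group in Slc37a4 at 207 CPM (161 to 176 CPM in the others) and Slc9a3r2 at 63.6 CPM (48.4 to 54.0 CPM in the others). WT kidney 5 was above its group in Slc11a2 at 69.2 CPM (46.4 to 54.4 CPM in the others) and Slc39a8 at 52.3 CPM (37.8 to 42.7 CPM in the others). WT duodenum 4 was below its group in Alpi at 2111 CPM (3829 to 4589.6 CPM in the others), Fth1 at 1728 CPM (4374 to 5490.1 CPM in the others) and Sis at 2517 CPM (3403 to 3837 CPM in the others). WT kidney 1 was below its group in Slc5a1 at 87.2 CPM (109.9 to 119.5 CPM in the others). WT kidney 3 was below its group in Ren1 at 9.82 CPM (114 to 145 CPM in the others). WT kidney 4 was below its group in Slc20a2 at 18.4 CPM (25.8 to 28.9 CPM in the others). WT kidney 6 was below its group in Cubn at 133 CPM (166 to 184 CPM in the others) and Slc13a1 at 200.4 CPM (348 to 400.5 CPM in the others).

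A further 19 values stood apart because the other 5 libraries of the group had 0 counts of the gene. In WT duodenum 1 they were Calb1 at 0.942 CPM. In WT duodenum 2 they were Casr at 0.241 CPM, Cldn16 at 0.241 CPM, Kap at 0.241 CPM, Miox at 0.0802 CPM, Slc22a12 at 0.160 CPM, Slc5a10 at 0.0802 CPM, Slc5a2 at 0.0802 CPM and Umod at 0.321 CPM. In WT duodenum 4 they were Cldn19 at 0.418 CPM. In WT duodenum 5 they were Slc22a8 at 0.510 CPM. In WT duodenum 6 they were Slc12a3 at 0.323 CPM and Slc34a1 at 0.323 CPM. In WT kidney 1 they were Muc6 at 0.876 CPM. In WT kidney 2 they were Cldn18 at 0.365 CPM and Myo1a at 0.365 CPM. In WT kidney 3 they were Cpb1 at 0.728 CPM and Pnlip at 1.09 CPM. In WT kidney 6 they were Slc39a4 at 1.14 CPM. Most of these rest on a few reads.

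The tissue difference of S100g was larger than in WT by 3.06 in KO and by 2.83 in AF2, and that of Slc37a2 was changed by -1.99 in KO (log2 scale, edgeR's interaction test over all 28 libraries, adjusted p below the threshold with all libraries). All were lost without single libraries named with the interaction tests.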

How the results depend on the processing

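The WT count of 9395 genes was 9402 with DESeq2 size factors in edgeR, 9431 with upper-quartile scaling, 9320 with library totals, 11629 with no filter, 9605 with limma-voom, 9569 with DESeq2, 8648 with counts divided by 2, 9497 with all symbols of either table, 9463 with runs of library codes as a block and 10453 in the fit of all 28 libraries. Leaving out 1 library gave 9090 to 9632 genes, and 3056 to 3304 at 4-fold. With no filter 5342 genes were 4-fold different, 2561 higher in duodenum and 2781 lower, over more genes tested. Upper-quartile scaling moved the median log2 difference to -0.14 and the split to 4193 higher and 5238 lower. Without mitochondrially encoded genes, an alternative chosen after seeing the data, the split was 4519 higher and 4841 lower. Same-numbered tissues share only a number in the labels, and their deviations correlated at -0.0159 to 0.121, with 5 of 6 duodenal libraries closest to the kidney library of their number. With the number as a replicate block, 9300 genes were called, 3103 at 4-fold, S100g lost its call (log2 0.86, adjusted p = 0.0533) and so did Cela1 (log2 1.23, adjusted p = 0.538). In the interaction fit with the replicate block, S100g lost its calls in KO (adjusted p = 0.214) and AF2 (adjusted p = 0.112) and Vdr gained one in KO (adjusted p = 0.0248). The changed tissue differences numbered 23 in KO with no filter and 36 in AF2 with the replicate block, and 0 to 23 in KO and 19 to 123 in AF2 without single libraries. Contrasts within KO and AF2 kept their counts within 1.5 times under every alternative run. Of 175 genes named and tested in WT, under 24 alternatives, 7 had a call that changed, namely Cela1, Cpb1, H2-Ab1, Hnf4a, Ncoa1 (lost with upper-quartile scaling and no filter), Pnlip and S100g. The reversals were H2-Ab1, at -1.36 (without WT kidney 2) to 0.038 (without WT kidney 1) when single libraries were left out, and Cyp4b1 in AF2, at -0.21 (without AF2 duodenum 1), -0.14 (without AF2 kidney 4) and up to 0.49 (without AF2 kidney 3). Elsewhere than where fewer samples or genes were tested, the cause was not tested. Depth limits the genes with few reads, among them Trpv6, Trpv5, Cyp27b1 and Casr.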
